A study of Drosophila melanogaster with 6 samples.

Results

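Of the 32162 probes for Drosophila melanogaster transcripts on the arrays, 32 probes (29 transcript or clone identifiers) had a mean log2 ratio above the wild-type ovary reference in control ovaries and close to that reference in ovaries with ectopic JAK/STAT and EGFR signaling. For 3 of them the control mean was carried by 1 array, and for 2 the reference signal was not well above background on any array. These probes were chosen by their measured values in the comparison of ectopic with control ovaries. Their mean log2 ratio was at least 1 lower in ectopic than in control ovaries, all 3 ectopic arrays were below all 3 control arrays, the ectopic mean lay between -0.5 and 0.5, and the sample signal was well above background on all 3 control arrays. The differences between the groups are therefore given as a description, with no test. A log2 ratio of 0 is the level of the reference, and a difference of -1 is a level lower by 2.0-fold.

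Whole ovaries were profiled on 6 Agilent 2-colour arrays, with 3 biological replicates in each group. Control females were GAL80TS/+ ; GR1-GAL4/TM6B, and the females with ectopic signaling were GAL80TS/+ ; GR1-GAL4/UAS-Unpaired, UAS-lambdatorpedo. Both groups were 5 to 8 days old, came from crosses kept at 18 °C, were fed yeast for 2 days, and spent the last 16 hours at 29 °C. Sample RNA always carried the red dye Cy5, and the green dye Cy3 always marked 1 common reference, a pool of wild-type OreR ovaries from females kept at 25 °C. All samples therefore carried the GAL4 driver and GAL80TS and had been shifted to 29 °C, whereas the reference had neither the transgenes nor the shift. The controls carried the TM6B balancer chromosome where the ectopic flies carried the UAS transgenes, so the balancer and the absence of the transgenes cannot be told apart in these data. GR1-GAL4 drives expression in the follicle cells, but whole ovaries were dissected and several ovary pairs were pooled for each preparation. In such bulk samples, fewer cells of a type and less RNA per cell cannot be told apart.

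The follicle cells form the epithelium around each developing egg chamber. Unpaired is the secreted ligand of the JAK/STAT pathway, in which a receptor-bound kinase activates the transcription factor Stat92E, and torpedo is the fly EGF receptor, which signals through the Ras and MAP kinase cascade. In normal oogenesis the polar cells at the ends of the egg chamber release Unpaired and the oocyte releases an EGFR ligand, and the combination of both signals specifies the posterior follicle cells. In this experiment a constitutively active receptor (lambdatorpedo) and the ligand were expressed through the whole epithelium.

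Between 23606 and 33915 of the 43602 transcript spots on each array were well above background in Cy5, with the highest number on the array of control replicate 3 and at most 25205 on the other 5. No spot was saturated, and the median deposited log2 ratio over all probes was 0.0 on each array. The number of arrays limits the precision of every value here. Files and reference tables named a single gene for 343 probes, none of them among the 32. The 32 probes are therefore given by probe name and by the identifier on the array, which was a FlyBase transcript (FBtr) for 28 probes, a BDGP cDNA clone (IP or SD) for 3 and an assembled EST consensus (TC) for 1. For the same reason none of the 32 probes could be placed on the lists of heat shock, eggshell, yolk, germline, follicle cell, muscle, hemocyte, fat body, antimicrobial, testis, TM6B or pathway genes. Only 1 listed gene, kek1 of the follicle cell list, had a named probe at all, so the ovary label could not be checked against markers.

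Of all probes, 285 were at least 1 lower on the log2 scale in ectopic ovaries, and 272 of these also had groups that did not overlap. The ectopic mean of 233 of the 272 was below -0.5, that of 6 was above 0.5, and that of 33 was within 0.5 of the reference. One of the 33 was dropped by the requirement on background, which left the 32 probes, or 0.0995% of all probes. For comparison, 13.2% of all probes had every ectopic array below every control array, and limma called 268 probes (0.833%) lower in ectopic ovaries, using cut-offs of 0.05 for the Benjamini-Hochberg adjusted p and 2-fold for the change. That limma fit called 29 of the 32 probes, a count that the choice of probes on the same comparison largely fixes. Among probes with a fall of this size, an ectopic level near the reference was thus the less frequent outcome, and most were below it.

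Over the 32 probes the median log2 ratio was 1.06, 1.24 and 1.32 on the arrays of control replicates 1, 2 and 3. It was -0.15, -0.15 and -0.01 on the arrays of ectopic replicates 1, 2 and 3. Control means ran from 0.58 to 2.13 with a median of 1.23, and ectopic means ran from -0.50 to 0.46 with a median of -0.14. In ectopic ovaries 21 probes had a mean below the reference and 11 a mean above it, and 17 were within 0.25 of it. The difference between the groups ran from -1.003 to -1.79 with a median of -1.31, which corresponds to 2.48-fold, beside a median of -0.0033 over all probes. The median SD over 3 arrays was 0.13 in both groups, against 0.095 and 0.10 for all probes in control and ectopic ovaries.

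**Figure D1:**
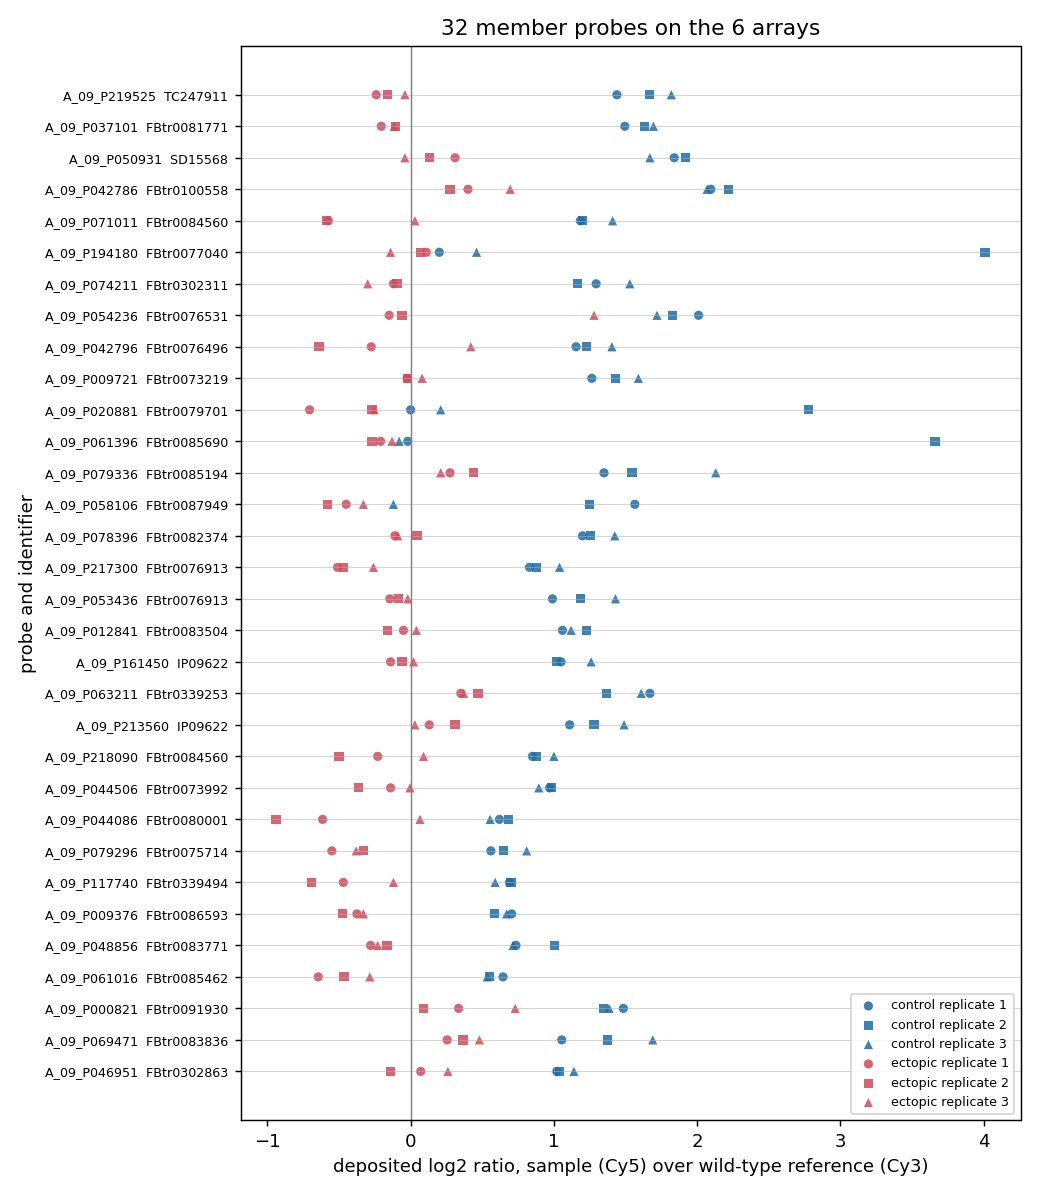
Deposited log2 ratio of sample (Cy5) over wild-type reference (Cy3) on the x axis for each of the 32 probes (rows, in the order of the fall), with 1 point per array, control in blue and ectopic in red, and the marker shape giving the replicate. Most control points lie to the right of 0.5 and most ectopic points within 0.5 of 0, while 3 probes (A_09_P194180, A_09_P020881 and A_09_P061396) are far above the reference on the array of control replicate 2 alone.

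The largest fall in the deposited ratios belonged to A_09_P219525, a probe for the EST consensus TC247911. Its log2 ratio was 1.44, 1.67 and 1.82 on the control arrays and -0.24, -0.16 and -0.04 on the ectopic arrays, so the lowest control array was 1.48 above the highest ectopic array. The mean difference was -1.79 (3.46-fold). Its Cy5 signal after subtraction of the local background was 858, 637 and 832 units in controls and 161, 89.0 and 123 units in ectopic ovaries, while the Cy3 signal of the reference stayed between 56.0 and 89.0 units on all 6 arrays.

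Probe A_09_P037101 for FBtr0081771 gave control values of 1.495, 1.63 and 1.70 and ectopic values of -0.21, -0.11 and -0.12. The groups were separated by 1.60, the widest gap of the 32, and each was tight (SD 0.10 and 0.055, n = 3). Its difference was -1.75 (3.36-fold).

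Clone SD15568, measured by A_09_P050931, stood at 1.84, 1.92 and 1.67 in controls and at 0.31, 0.13 and -0.04 in ectopic ovaries, a difference of -1.68. Its reference signal was well above background on only 1 of the 6 arrays, so its distance from the wild-type level is poorly determined. The Cy5 signal by itself was 491, 418 and 391 units in controls and 74, 38 and 30 units in ectopic ovaries.

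Transcript FBtr0100558, measured by A_09_P042786, had the highest control mean of the 32 probes. Its control values were 2.10, 2.22 and 2.07 and its ectopic values 0.40, 0.28 and 0.70, a difference of -1.67 (3.19-fold). Its ectopic mean of 0.46 was also the highest, and all 3 ectopic arrays remained above the reference. This probe was bright, with 3703 to 4449 units of Cy5 in controls and 676 to 1239 units in ectopic ovaries.

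Transcript FBtr0084560 was represented by 2 of the 32 probes. On A_09_P071011 it read 1.19, 1.20 and 1.41 in controls and -0.58, -0.59 and 0.03 in ectopic ovaries, a difference of -1.64. On A_09_P218090 it read 0.85, 0.88 and 1.00 in controls and -0.23, -0.50 and 0.09 in ectopic ovaries, a difference of -1.12. On both probes ectopic replicate 3 was the highest ectopic array, just above the reference.

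A pair of probes also carried the identifier FBtr0076913. Probe A_09_P217300 read 0.83, 0.88 and 1.04 in controls and -0.51, -0.47 and -0.26 in ectopic ovaries, a difference of -1.33. Probe A_09_P053436 read 0.99, 1.19 and 1.43 in controls and -0.15, -0.09 and -0.02 in ectopic ovaries, a difference of -1.29 (-1.285 before rounding). The ectopic mean was -0.41 on the first probe and -0.08 on the second, so the falls were of similar size while the distance from the reference was not.

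Clone IP09622 was the third identifier with a pair of probes. Probe A_09_P161450 gave 1.05, 1.02 and 1.26 in controls against -0.14, -0.06 and 0.02 in ectopic ovaries, and A_09_P213560 gave 1.11, 1.28 and 1.49 against 0.13, 0.31 and 0.03. The differences were -1.17 and -1.14. IP clones made up 0.724% of all probes and 6.25% of the 32, which is this single clone.

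Of the 29 identifiers, 19 had no other probe on the array, and 7 had further probes outside the 32, 9 such probes in all. Of these 9, 7 had a lower mean in ectopic than in control ovaries, 4 had groups that did not overlap in that direction, and 1 was at least 1 lower. Over all 32162 probes the median difference was -0.0033, 13.2% had groups apart in that direction, and 285 were at least 1 lower. One of the 4, A_09_P206590, was not well above background in either dye on any array. The probe at least 1 lower, A_09_P053126, was high on control replicate 2 alone, and its groups overlapped. Apart from A_09_P053126, the nearest of the 9 to the rule was A_09_P192125 for FBtr0339253, with 0.73, 0.99 and 1.06 in controls and 0.01, -0.12 and -0.09 in ectopic ovaries. Its difference of -0.99 fell just short of the threshold.

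The probe of FBtr0339253 inside the group, A_09_P063211, read 1.67, 1.37 and 1.61 against 0.35, 0.47 and 0.37, a difference of -1.15. A further probe for it, A_09_P175920, differed by -0.43, with Cy5 not well above background on any ectopic array. All 3 probes of this transcript were therefore lower in ectopic ovaries without overlap, by amounts that differed between probes.

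Other identifiers gave discordant probes. For FBtr0075714 the probe A_09_P079296 fell by 1.09, from 0.56, 0.65 and 0.81 to -0.55, -0.33 and -0.38, whereas A_09_P045321 read -0.49, -0.26 and -0.46 in controls and -0.42, -0.34 and -0.27 in ectopic ovaries, a difference of 0.06. For FBtr0083504 the probe A_09_P012841 fell by 1.19, from 1.06, 1.23 and 1.12 to -0.05, -0.16 and 0.04, whereas A_09_P173105 was higher in ectopic ovaries by 0.35 with overlapping groups. Both A_09_P045321 and A_09_P173105 were well above background in both dyes on all 6 arrays.

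For FBtr0302863 the probe A_09_P046951 differed by -1.003 and A_09_P000156 by -0.20, and for FBtr0091930 the probe A_09_P000821 differed by -1.02 and A_09_P217360 by -0.34. For FBtr0073992 the probe A_09_P044506 differed by -1.12, beside -0.07 on A_09_P184670 and -0.14 on A_09_P206590. Cy5 on these last probes was not well above background on any ectopic array, and A_09_P206590 was not well above background in either dye on any array. Which part of the transcript each probe covers was not analysed here.

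**Figure D2:**
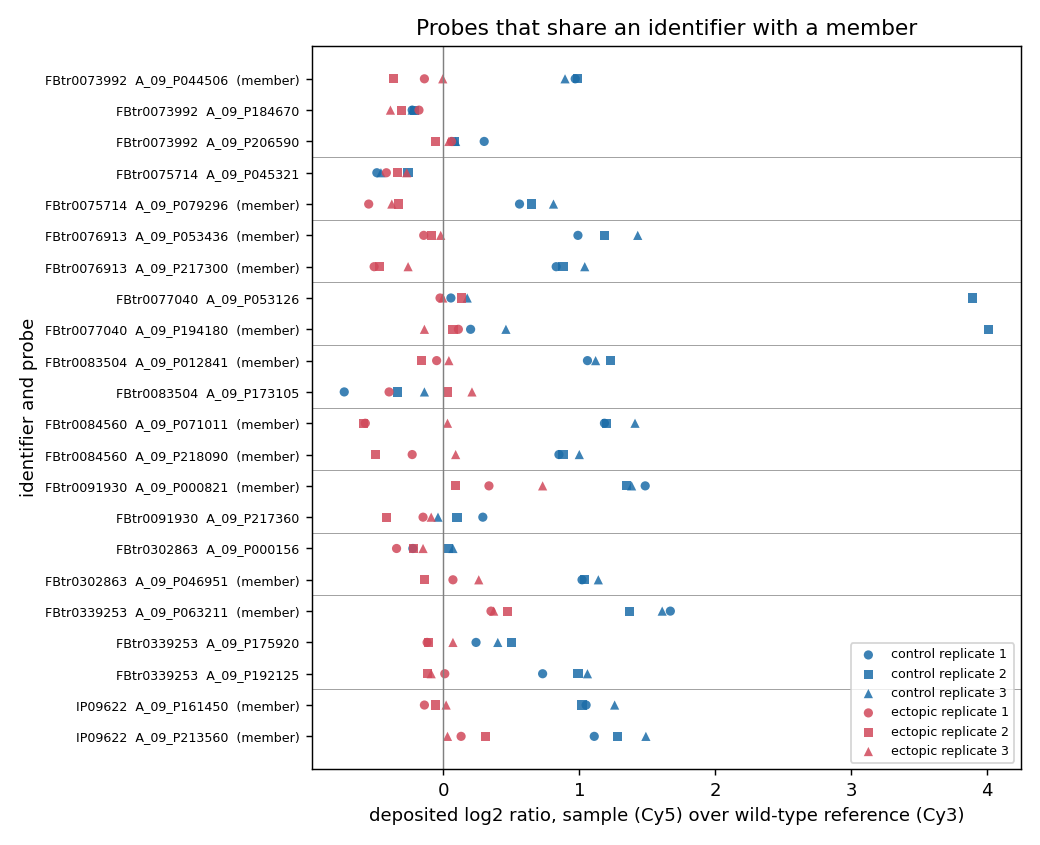
Deposited log2 ratio (x axis) on each of the 6 arrays for every probe of the 10 identifiers that had more than 1 probe, control in blue and ectopic in red, with the probes among the 32 marked as members. Both probes of FBtr0084560, FBtr0076913 and IP09622 separate the groups, while FBtr0075714 and FBtr0083504 each have 1 probe that separates them and 1 that does not.

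The 3 probes nearest to the threshold from inside were A_09_P046951, A_09_P069471 and A_09_P000821. The first read 1.02, 1.04 and 1.14 in controls and 0.07, -0.14 and 0.26 in ectopic ovaries. Probe A_09_P069471 for FBtr0083836 read 1.06, 1.38 and 1.69 against 0.26, 0.37 and 0.48, with a difference of -1.01. Probe A_09_P000821 read 1.49, 1.35 and 1.39 against 0.34, 0.09 and 0.73. The ectopic arrays of the last pair of probes stayed above the reference on all 3 replicates.

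Just outside the threshold, besides A_09_P192125, were A_09_P177575 for FBtr0087437 at -0.96 and A_09_P144020 for FBtr0304867 at -0.95. The latter was the tightest of them in controls, at 0.86, 0.85 and 0.84 against -0.16, -0.26 and 0.13. At the lower edge of the window, A_09_P044086 for FBtr0080001 had an ectopic mean of -0.50 (-0.497) and was kept, and A_09_P028356 for FBtr0072747 had one of -0.51 and was not. At the upper edge, A_09_P042786 was kept and A_09_P202980 for TC235098 was not, with 1.97, 2.24 and 2.21 in controls and 0.56, 0.79 and 0.37 in ectopic ovaries. The thresholds thus divide a continuous range of values.

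Control values were most alike for A_09_P044506, A_09_P061016 and A_09_P117740, all of which had a control SD between 0.048 and 0.061 (n = 3). Probe A_09_P044506 for FBtr0073992 read 0.97, 0.99 and 0.90 in controls and -0.14, -0.37 and -0.01 (-0.005) in ectopic ovaries. Probe A_09_P061016 for FBtr0085462 read 0.65, 0.55 and 0.54 against -0.65, -0.47 and -0.29, a difference of -1.04, and was well above background in Cy5 on 1 of 3 ectopic arrays. Probe A_09_P117740 for FBtr0339494 read 0.69, 0.70 and 0.59 against -0.47, -0.69 and -0.12, a difference of -1.09. In all 3 the ectopic arrays were more spread than the control arrays. Picking these probes for the smallest control SDs largely fixes this contrast. Over all probes that met the rule, the median SD was 0.13 in control and 0.13 in ectopic ovaries.

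Control values differed most for A_09_P194180, A_09_P061396 and A_09_P020881, which had the largest control SDs, 2.13, 2.14 and 1.55. Probe A_09_P194180 for FBtr0077040 read 0.20, 4.01 and 0.46 in controls and 0.11, 0.07 and -0.14 in ectopic ovaries. Probe A_09_P061396 for FBtr0085690 read -0.02, 3.66 and -0.08 against -0.21, -0.27 and -0.13. Probe A_09_P020881 for FBtr0079701 read 0.00, 2.78 and 0.21 against -0.71, -0.27 and -0.26. Each was far above the reference on the array of control replicate 2 and near it on the other 2 control arrays, so their membership rested on 1 array.

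The Cy5 signal of A_09_P194180 was 4237 units on that array and at most 110 units on the other 5, and that of A_09_P061396 was 4920 units beside at most 111 units. Before normalization, the Cy3 signal of the common reference was also highest there. It was 95.5 units beside at most 23.5 for A_09_P194180, 162 beside at most 48.0 for A_09_P061396, and 98.0 beside at most 78.5 for A_09_P020881. After normalization, the log2 lead of that array in Cy3 was 1.02, 0.996 and -0.046 in the same order. The normalized reference signal of A_09_P020881 was thus not highest there. Both probes of FBtr0077040 gave this pattern, since A_09_P053126 read 0.06, 3.90 and 0.18 in controls and -0.03, 0.14 and -0.01 (-0.005) in ectopic ovaries. Both spots of A_09_P020881 did too, at 2.65 and 2.91 on control replicate 2. Without control replicate 2 the differences were -0.32 for A_09_P194180, -0.52 for A_09_P020881 and -0.15 for A_09_P061396, and these are the 3 probes that limma did not call. What set this array apart for these probes was not tested.

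One more probe with a control SD above 0.5 (a limit set after the values were seen) was A_09_P058106 for FBtr0087949. It read 1.57, 1.25 and -0.12 in controls and -0.45, -0.58 and -0.33 in ectopic ovaries, so it was high on control replicates 1 and 2 and not on 3. Both of its spots showed this, at 1.65 and 1.48 on control replicate 1 and at -0.07 and -0.17 on control replicate 3. The other 28 probes had control SDs up to 0.41 with a median of 0.13, a median difference of -1.18, and were all called by limma.

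Replicates with the same number were on the same slide, so each difference could also be read within 3 slides. Over the 32 probes the median was -1.18 on slide 1, -1.37 on slide 2 and -1.14 on slide 3. All 32 were below 0 on every slide by the rule, which puts every ectopic array below every control array. Of them, 26, 29 and 18 were at least 1 lower on slides 1, 2 and 3. A fall of at least 1 on every slide was seen for 14 probes, all of them among the 28. Over the 28, the slide medians were -1.21, -1.31 and -1.23 (-1.225).

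A set of 7 probes was picked on which ectopic replicate 3 exceeded both other ectopic arrays by more than 0.3, a margin set after the values were seen. These were A_09_P071011, A_09_P218090, A_09_P054236, A_09_P042796, A_09_P044086, A_09_P117740 and A_09_P000821, for 6 identifiers. Their median difference was -1.24 on slide 1, -1.63 on slide 2 and -0.71 on slide 3. The other 21 of the 28 had medians of -1.19, -1.21 and -1.30, with no slide difference smaller than a fall of 0.80 and 13 probes at least 1 lower on every slide. The smaller slide 3 fall of the 7 and the more even slides of the 21 follow in part from this choice. Ectopic replicate 3 was the highest ectopic array for 22 of the 32 probes, so that was not particular to the 7.

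The most uneven of the 7 was A_09_P054236 for FBtr0076531, which read 2.01, 1.83 and 1.72 in controls and -0.15, -0.06 and 1.28 in ectopic ovaries. Its ectopic SD of 0.80 was the largest of the 32, and the ectopic replicate 3 value lay 0.44 below the lowest control. Its Cy5 signal was 725, 399 and 389 units in controls and 68.0, 31.0 and 247 units in ectopic ovaries. Probe A_09_P044086 read 0.62, 0.69 and 0.56 against -0.62, -0.94 and 0.07, so its ectopic values spanned about as much as separated the group means.

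The brightest of the 32 probes by far was A_09_P042796 for FBtr0076496, also among the 7. It read 1.16, 1.23 and 1.41 in controls and -0.28, -0.64 and 0.42 in ectopic ovaries, a difference of -1.43. Its Cy5 signal was 94648, 92509 and 140502 units in controls and 51807, 34677 and 73940 units in ectopic ovaries. The Cy3 signal of the same reference RNA was 14414, 19597 and 17118 units beside controls and 19005, 26371 and 23286 units beside ectopic samples, a normalized difference of 0.45, the largest rise in the reference channel of the 32. Part of its lower ratio was therefore carried by the reference channel, and its Cy5 difference was -0.95.

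**Figure D3:**
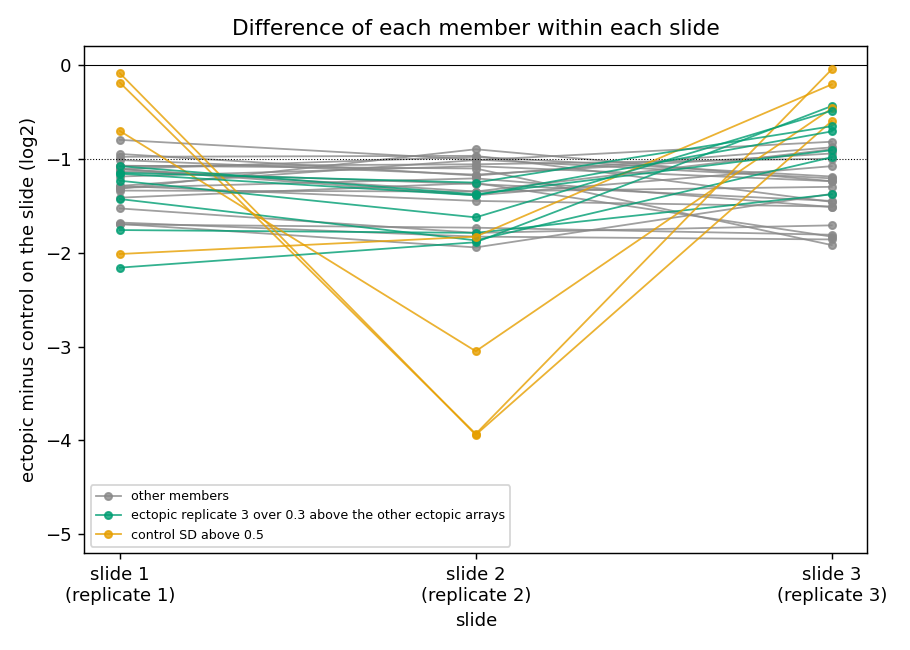
Ectopic minus control log2 ratio (y axis) within each of the 3 slides (x axis) for each of the 32 probes, joined by a line per probe. The 21 grey probes lie between -0.80 and -1.945 on every slide. The 7 green probes, picked for a high ectopic replicate 3, rise toward 0 on slide 3. Of the 4 orange probes, picked for a high control SD, 3 are far lower on slide 2 and 1 is near 0 on slide 3 only.

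Among the remaining probes of the 28, A_09_P074211 for FBtr0302311 read 1.30, 1.17 and 1.53 in controls and -0.12, -0.10 and -0.30 in ectopic ovaries, a difference of -1.502. Probe A_09_P009721 for FBtr0073219 read 1.27, 1.43 and 1.59 against -0.03, -0.02 and 0.08, a difference of -1.42. Probe A_09_P078396 for FBtr0082374 read 1.20, 1.26 and 1.43 against -0.11, 0.05 and -0.09, a difference of -1.35. By the rule the groups did not overlap on any of these, and the narrowest gap was 1.155.

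Smaller falls were seen for A_09_P009376 (FBtr0086593), at 0.71, 0.59 and 0.67 in controls and -0.38, -0.48 and -0.33 in ectopic ovaries, and for A_09_P048856 (FBtr0083771), at 0.74, 1.01 and 0.72 against -0.28, -0.17 and -0.23. These differences were -1.05 and -1.04. Probe A_09_P079336 for FBtr0085194 had the most variable controls of the 28, at 1.35, 1.55 and 2.13, against 0.28, 0.44 and 0.21, a difference of -1.37.

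The Cy5 signal was well above background on all 3 ectopic arrays for 24 of the 32 probes, on 2 arrays for 3, on 1 array for 2 and on none for 3. In Cy3 the reference was well above background on all 6 arrays for 24 probes, on 1 to 5 arrays for 6 and on none for 2. Both conditions were complete for 21 probes, with a median difference of -1.15, and incomplete for 11, with a median of -1.39. For these 11 at least 1 of the signals behind the distance from the wild-type level was not well measured.

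For the 3 probes with no ectopic array well above background, the Cy5 channel gives only a bound on the fold change in Cy5. This is the mean normalized control signal over the dim group's own signal, which exceeded the lowest well-measured signal. It is not corrected by the reference channel. The control Cy5 signal was at least 3.41-fold higher for A_09_P074211 (mean log2 Cy5 of 8.03 against 6.26), at least 3.26-fold (3.255) for A_09_P009721 (7.96 against 6.26) and at least 2.73-fold for A_09_P012841 (7.53 against 6.08). The Cy3 difference of these probes, in the same order, was -0.27, -0.25 and -0.24. Their folds by the deposited ratios, which use the reference, were 2.83, 2.67 and 2.29, each smaller than the bound in Cy5. In A_09_P009721 and A_09_P012841 the reference was not well above background on any array, so no distance from the wild-type level was measured for them.

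With the channels taken apart, the difference between the groups lay mainly in the sample channel. The reference was 1 common RNA pool, so Cy3 differences near 0 follow from the design. The Cy5 difference after normalization had a median of -1.45 over the 32 probes (range -2.01 to -0.95) and the Cy3 difference a median of -0.10 (range -0.50 to 0.45). The Cy3 difference was farthest from 0 for A_09_P061396 (-0.50), A_09_P042796 (0.45) and A_09_P194180 (-0.43). Over all probes the medians were -0.00073 and -0.0028.

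The size of the ratios depended on how background was handled. The log ratios that the scanner software computed by plain background subtraction gave the 32 probes a median difference of -2.09 (range -4.61 to -1.09), with -1.53 for the 21 well-measured probes and -2.84 for the other 11. By these ratios the groups did not overlap for 30 probes, and the ectopic mean was within 0.5 of the reference for 16, below it by more for 10 and above it by more for 6. The order of the falls also depended on it, since the largest was that of A_09_P074211 by the scanner ratios and that of A_09_P012841 (-2.77) with a normexp offset of 0, beside -2.63 and -2.29 for A_09_P219525. All 32 probes were lower in ectopic ovaries by the scanner ratios, as the rule required of the deposited ratios. An ectopic mean within 0.5 of the reference was seen in both kinds of ratio for 16 of the 32 probes. These 16 include A_09_P009721 and A_09_P012841, whose reference was not well above background on any array. For that pair of probes this is not a measured level near wild type.

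**Figure D4:**
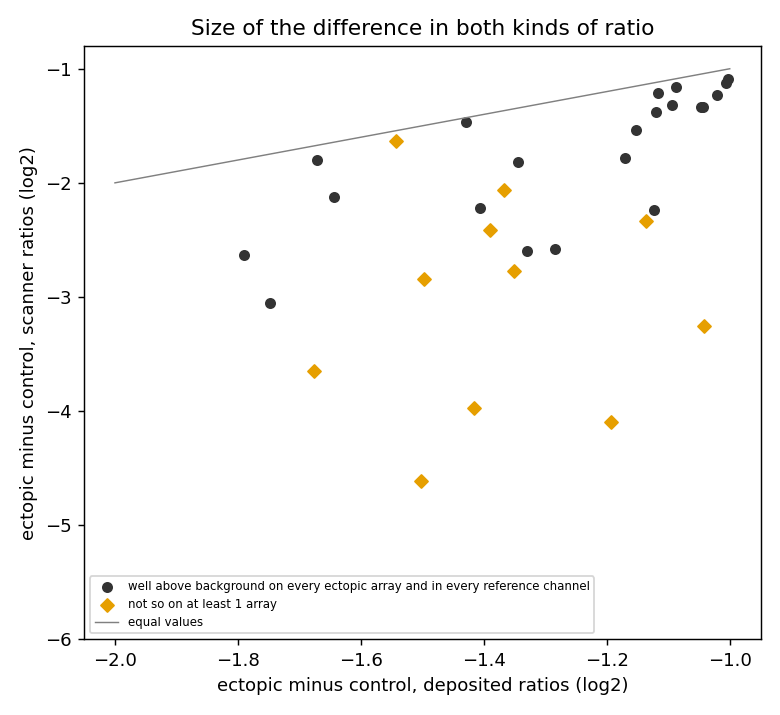
Ectopic minus control difference of each of the 32 probes by the scanner software's log ratios (y axis, log2) against the deposited ratios (x axis, log2). The grey line marks equal values, and the 11 probes not well above background on at least 1 ectopic array or in at least 1 reference channel are orange, among them the 5 lowest points, from -3.26 to -4.61, and also A_09_P194180, which at -1.64 lies close to the line.

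Within an array, probes printed as more than 1 spot agreed closely. Of the 32 probes, 18 had 2 spots and 14 had 1, and the median difference between both spots of a probe on an array was 0.09. The largest was 0.48, for A_09_P074211 on control replicate 3.

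FlyBase transcripts made up 87.5% of the 32 probes and 67.3% of all probes, and EST consensus sequences made up 3.12% and 14.4%. The shares over all probes include probes not well above background, whereas the 32 had to be well above it in controls. Neither probes from adult testis clones (145 in all, 0.451% of all probes) nor those from ovary GM clones (87, 0.271%) nor noncoding RefSeq transcripts (274, 0.852%) were among the 32. With shares this small, their absence from 32 probes is not a trait of the group.

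When each array was left out in turn, 17 of the 32 probes, for 15 identifiers, met the rule under all 6 omissions. Leaving out control replicate 2 removed the most markedly changed probes, the 3 named above, together with A_09_P048856, whose difference became -0.95. The other probes lost under any omission kept a difference of 0.80 to 1.25 times that over all arrays, as with A_09_P042786, whose ectopic mean became 0.55 without ectopic replicate 2, and A_09_P054236, whose ectopic mean became 0.61 without ectopic replicate 1.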

How the data were processed

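Per the labels and the study's methods, the authors scanned 6 arrays on 3 slides with Feature Extraction 11.0.1.1 (version from the file headers) and used limma to correct background by normexp and to normalize by loess within and quantiles between arrays. The deposited table holds these log2 ratios of Cy5 over Cy3, rounded to 2 decimals, and the deposited scanner files hold median intensity and background per spot and a log10 ratio (multiplied to log2 here). The probes were designed on version 2 of the Drosophila genome, per the study's methods, and the normexp offset is not given in the sources used here. The deposited ratios were matched to spots by row order, where they correlated with the scanner ratios at 0.718 to 0.812 per array. Recomputing them with an offset of 50 gave correlations of at least 0.9997, which settled scale and direction.

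Control spots were left out and spots of a probe averaged (32162 probes). All columns of sample values were used (0 were not). A probe counted as well above background where more than 0.5 of its spots had the scanner's flag. Limma 3.58.1 in R 4.3.3 was fitted to all probes on the 6 arrays, without a replicate term, with Benjamini-Hochberg adjustment, and the script was tested on simulated data. Members of the group and gene lists were chosen with earlier results of these data known. Probes were named by rule: those matching 1 RefSeq gene (assembly Release 6 table), the 6 largest falls, the 3 nearest on each side of the threshold of -1, identifiers with 2 or more members, and the 3 smallest and 3 largest control SDs. All other named probes were chosen after their values were seen. Alternatives covered the source of the ratios, background offset, normalization, flags, detection, thresholds, spots, the replicate block and each array left out. The replicate numbers of samples were compared through the correlation of their deviations from the group means, which was 0.25, 0.0025 and 0.10 for same-numbered arrays, so the numbers were not taken to pair samples beyond the shared slide.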

Additional observations from a re-analysis of the deposited data

How the results depend on the processing

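The number of probes meeting the rule was 32 and ran from 28 to 42 when 1 array was left out. It was 53 with a normexp offset of 0 (24 of the 32 shared), 94 with median centring alone (26 shared) and 56 with the scanner software's ratios (16 shared). It was 21 with detection required in Cy5 on all ectopic arrays and in Cy3 on all arrays, 7 with a fall of at least 1.5, 17 with a window of 0.25, and 14 with the replicate block, taken as a fall of at least 1 on every slide. The other settings gave 30 to 33 probes. The median difference over the 32 probes was -1.31, against -1.84 with an offset of 0, -1.49 with median centring and -2.09 with the scanner ratios, and it ran from -1.32 to -1.16 with 1 array left out, the last without control replicate 2. No probe changed direction under any of these settings. With 1 array left out this was fixed by the rule, since the groups did not overlap on any of the 32 probes. The other settings re-used the same arrays on probes chosen for their fall. The limma count of lower probes was 268, against 269 with the replicate block and 237 to 337 with 1 array left out, 370 with an offset of 0 and 396 with the scanner ratios. Fitting each spot on its own gave 409 spots, for 272 different probes, since many probes are printed more than once. The causes of the other shifts were not tested. Signal over background limited 11 of the 32 probes.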

Other observations

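The pattern of the 3 probes that were high on the array of control replicate 2 alone extended beyond the 32. On that array 32 probes, for 29 identifiers, read at least 2 on the log2 scale above all 5 other arrays, with a median lead of 2.65, and all of them were well above background there in Cy5. A lead of at least 2 was also seen for 4 probes on the array of ectopic replicate 2, of which 3 were well above background there in Cy5. It was seen for 1 probe on the array of ectopic replicate 3 and for 0 probes on each of the other 3 arrays. The largest lead, 4.17, belonged to A_09_P007056 for FBtr0087854, which read 4.30 on control replicate 2 and between -0.18 and 0.14 on the other arrays. Its Cy5 signal was 3441 units on that array and at most 42.8 units on the others, and its Cy3 signal was 49.2 units beside at most 19.8. The reference signal did not rise on that array for every such probe. For A_09_P054481 it was 192.5 units beside at most 22.0, and for A_09_P166195 it was 13.0 units, within the range of the other arrays. One such probe, A_09_P032651 for FBtr0100432, met every condition of the rule except detection in controls. It read -0.01 (-0.005), 3.29 and -0.02 in controls and was well above background on 1 control array. These probes were singled out after their values were seen.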
